A study of Homo sapiens with 2 samples.

Results

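Amiloride is a diuretic that blocks epithelial sodium channels and, at higher doses, sodium-proton exchangers and acid-sensing ion channels. The genes were chosen because their symbol marks them as a sodium-proton exchanger (SLC9A or SLC9B), an epithelial sodium channel subunit (SCNN1) or an acid-sensing channel (ASIC), and they were looked for by symbol in all 5 tables of splicing events that rMATS made for this experiment. Described here are 12 genes with 114 listed events, of 12254 genes and 159490 events in all. Polyadenylated RNA of HEK293T, an established human line that grew out of embryonic kidney cells, was sequenced in 2 libraries. Control cells received no drug, and the other cells received amiloride at 300 µg/mL for 6 h. Each condition has 1 library, so there is no replicate error. In these tables a library has a number but no condition. Inclusion levels, read depth and the change after amiloride are therefore not reported. What follows describes which events of these genes were listed and which sequences lie at the splice sites. It also gives what the RNA would contain, mainly in the skipping form. A listed event is a pair of splice forms to which the rMATS tables give a row, and how many reads either form had was not examined.

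Sodium-proton exchangers move sodium one way across a membrane and protons the other way, and so set the pH of the cytosol and of organelles. SLC9A2 and SLC9A5 act mainly at the plasma membrane, SLC9A2 in epithelia and SLC9A5 best known from neurons. SLC9A9 acts in endosomes, SLC9A7 in the trans-Golgi network and SLC9A8 in the Golgi and endosomes. SLC9B1 and SLC9B2 are more distant sodium-proton antiporters. SCNN1D is the delta subunit of the epithelial sodium channel, and ASIC1 and ASIC3 are proton-gated channels of the same superfamily. SLC9A3R1 and SLC9A3R2 (now NHERF1 and NHERF2) carry an exchanger's name but are PDZ scaffold proteins that bind SLC9A3, and they are neither exchangers nor channels. The rule was one of names, and whether each protein was blocked in these cells was not measured.

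Exon skipping joins the 5′ splice site (5′ss) of one exon to the 3′ splice site (3′ss) of an exon further on. Most introns start with GT, end with AG and are removed by the major spliceosome. A small class is removed by the minor spliceosome, which reads a long conserved 5′ss and accepts introns that start with AT and end with AC. Some of the best known minor-class introns lie in voltage-gated sodium channel genes. In the canonical transcripts of the 12 genes, 7 of 143 introns (4.9%) carried the letters TATCC at intron bases 2 to 6, read on the transcribed strand, against 910 of 230821 introns (0.394%) in canonical transcripts of all genes. This search was chosen after seeing the data. All 7 lay in the 3 organellar exchangers. Of the 7, 3 started with AT and ended with AC, and 4 started with GT and ended with AG. The 5′ss of the 3 AT-AC introns are shown because they lie between exons of like length in each gene, with the first 10 intron bases in capitals after 10 exon bases (GRCh37).
SLC9A7 intron 7, chrX:46513150-46521450, minus strand: gactgctctaATATCCTTTT
SLC9A8 intron 9, chr20:48479605-48481275, plus strand: ttctgcattaATATCCTTTT
SLC9A9 intron 7, chr3:143293036-143297426, minus strand: cacagcactgATATCCTTTG
The exon before this intron had 142 bases in SLC9A7 and 139 bases in SLC9A8 and SLC9A9, and the exon after it had 106 bases in all 3 genes. A match to these letters describes the sequence and does not show which spliceosome acted.

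SLC9A8 had the most listed events of the 12 genes, with 25, and SLC9A7 had 5. SLC9A5 followed SLC9A8 with 20 events and SCNN1D with 15. ASIC1 and SLC9A3R1 had 11 each, SLC9B2 had 9 and ASIC3 had 7. SLC9A9, SLC9B1 and SLC9A3R2 had 3 each, and SLC9A2 had 2. By role, the 3 organellar exchangers held 33 events, the 3 channel subunits 33, the 2 plasma membrane exchangers 22, the 2 scaffolds 14 and the 2 antiporters 12. By type, 90 of the 114 events were skipped exons (0.0793% of the 113456 listed in all genes). A further 20 were mutually exclusive exons (0.0502% of 39869), 1 was an alternative 5′ss (0.0382% of 2620) and 3 were alternative 3′ss (0.105% of 2868). None of the 677 retained intron events lay in these genes. The number of events of a gene depends on how many exons it has and on how deeply it was read, and depth was not used here.

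**Figure D1:**
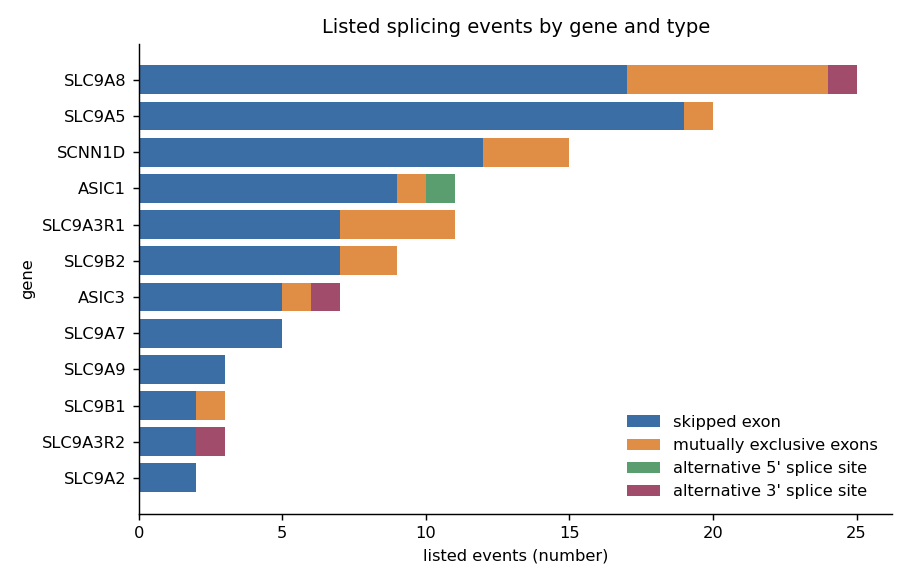
Number of listed splicing events (x axis) for each of the 12 genes (y axis), with the bar divided by event type. SLC9A8 has 25 events, of which 17 are skipped exons and 7 mutually exclusive exons, while all 5 events of SLC9A7 are skipped exons.

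The 90 skipped-exon events concerned 64 distinct exons, where an exon is a pair of ends on one strand. Of these, 60 were exons of the canonical transcript and 4 were not. The median length was 120.0 bases (quartiles 83 and 154), and over all 67154 listed exons it was 114 bases (83 and 154). The exons thus had about the same size as the listed exons of all genes. The shortest was exon 7 of SLC9A8, of 35 bases, and the longest was exon 2 of SLC9A2, of 464 bases. An exon whose length is a multiple of 3 can be left out without a change of reading frame. This held for 18 of the 64 exons (28.1%, 95% Wilson interval 18.6 to 40.1) and for 26064 of all 67154 (38.8%). The interval holds the share of all exons, so a lower share in these genes was not resolved with 64 exons. The intervals given here cover counting error only, and exons of a gene are not independent.

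An exon was listed in 1.41 events on average, against 1.69 over all genes, and 22 of the 64 exons had more than 1 event. Exons 11 and 12 of SLC9A8, exon 13 of SCNN1D and exon 3 of SLC9A3R1 had 3 events each, the highest number. Events on the same exon have other neighbours on one or both sides, and 90 events rested on 75 distinct skipping junctions. For 13 events (14.4%, Wilson interval 8.64 to 23.2) the skipping junction was an intron of a transcript in GENCODE release 44, against 20367 events (18.0%) over all genes. The share of all genes again lay inside the interval. In 4 genes no listed skipping junction was annotated: SLC9A2, SLC9A3R2, SLC9A7 and SLC9A8, with 26 events between them. Annotated skipping was found in each of the other genes, for example in 3 of 7 events of SLC9A3R1 and 2 of 5 of ASIC3. The Wilson interval ran up to 43.4% for SLC9A7 (0 of 5 events) and up to 18.4% for SLC9A8 (0 of 17). Both intervals hold the 18.0% of all genes. How many of all genes have no annotated skipping junction was not counted.

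What a skipping junction would do to the protein was worked out on the canonical transcript with that change alone. Of the 90 events, 45 left out 1 canonical exon and 43 left out 2 or more, and in 2 the listed exon was not in the canonical transcript, so the skipping form was the canonical one. The frame was kept in 29 events and shifted in 59. In 50 of the 59 the first stop codon of the shifted frame lay more than 50 bases before the last exon junction, the position that is commonly linked to nonsense-mediated decay. Whether any of these RNAs was degraded was not measured. Events that share a skipping junction were each counted, and the same shares over all genes were not worked out. The protein of the inclusion form was worked out only for exon 10 of SLC9A8. Both inclusion junctions were annotated in 47 of the 90 events (52.2%), against 57.0% over all genes. Elsewhere the inclusion form can itself lack canonical exons. In the event on exon 14 of SLC9A7, for example, the inclusion form also lacks exon 13.

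SLC9A7 lies on the minus strand of chromosome X, and its canonical transcript has 17 exons and 726 codons. Its 5 skipped-exon events concerned 5 exons and none was annotated as skipped. Exon 13 (chrX:46495024-46495083, 60 bases) was the only one whose loss kept the frame, with 706 codons left. The event on exon 14 (chrX:46491021-46491084, 64 bases) had a skipping junction from exon 12 to exon 15, which leaves out exons 13 and 14 together, 124 bases, and ends the frame after 568 codons. Exon 9 (chrX:46510751-46510839, 89 bases) shifted the frame and left 384 codons. Exon 5 (chrX:46529042-46529154, 113 bases) left 233 codons and exon 2 (chrX:46541771-46541970, 200 bases) left 178. All 4 shifted forms had their stop more than 50 bases before the last junction, from 101 to 1195 bases.

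The splice sites of the 5 SLC9A7 exons differed widely. Each site was scored by how closely its bases match the base frequencies of annotated human sites, over 9 bases at the 5′ss and 23 bases at the 3′ss, and the score was placed among all 67154 listed exons as a percentile. Exon 2 lay behind an intron of 76169 bases and had strong sites on both sides, at the 91.2 percentile for the 3′ss and 82.0 for the 5′ss. Exon 9 had the weakest 3′ss of the 5, at the 5.21 percentile, with a strong 5′ss at 88.4, and the intron after it had only 92 bases. Their sites are shown to let the pyrimidine tract before each exon be compared, with exon bases in capitals.
SLC9A7 exon 2, 3′ss: gtttttttccactctttcagGGC
SLC9A7 exon 2, 5′ss: AAGgtgagc
SLC9A7 exon 9, 3′ss: ttggggggatgttttaacagGTG
SLC9A7 exon 9, 5′ss: CAGgtgaga
The tract before exon 2 is made almost wholly of pyrimidines, whereas the one before exon 9 holds a run of G. Exon 5 had a 3′ss at the 83.8 percentile and a 5′ss at 34.6. Exons 13 and 14 had 3′ss at 54.9 and 33.9 and 5′ss at 31.5 and 71.9.

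SLC9A8 lies on the plus strand of chromosome 20, and its canonical transcript has 16 exons and 581 codons. Its 17 skipped-exon events concerned 10 exons and rested on 13 distinct skipping junctions, none of them annotated. They fell into 2 blocks of neighbouring exons, exons 4 to 7 and exons 10 to 13, and exon 15. In 10 of the 17 events the junction left out 2 to 4 canonical exons. The frame was kept in 4 events and shifted in 13, and in all 13 the new stop lay more than 50 bases before the last junction, from 409 to 1231 bases.

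In the first block, exon 4 (chr20:48456078-48456136, 59 bases) was listed with a junction to exon 5, which leaves 116 codons, and with one to exon 8, which removes 280 bases and leaves 102 codons. Exon 5 (chr20:48461573-48461656, 84 bases) alone could be lost in frame, with 553 codons left. The junction from exon 4 to exon 8 was shared by an event on exon 5 and one on exon 6 (chr20:48466116-48466217, 102 bases). It leaves out 221 bases and shifts the frame, although exons 5 and 6 are each a multiple of 3 in length, because the 35 bases of exon 7 go with them. Exon 7 (chr20:48467347-48467381) was listed in 2 lengths. The longer one has 83 bases, since its 3′ss lies 48 bases upstream, and the same pair of 3′ss was the only alternative 3′ss event of the gene. Both 3′ss were annotated. The 48 added bases (chr20:48467299-48467346) are shown with the closing AG, which serves the shorter form, in capitals.
SLC9A8 exon 7, added stretch: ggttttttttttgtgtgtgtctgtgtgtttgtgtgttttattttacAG
They are a multiple of 3 and made almost wholly of T and G. The 3′ss of the shorter exon lay at the 90.2 percentile and that of the longer one at 42.4.

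In the second block, exon 11 (chr20:48491242-48491358, 117 bases) could be lost in frame from a junction between exons 10 and 12, with 542 codons left. Exon 12 (chr20:48494518-48494600, 83 bases) alone shifted the frame and left 382 codons, and exons 11 and 12 together, 200 bases, left 343. The loss of exons 11, 12 and 13, 312 bases in all, kept the frame with 477 codons. This was the form set against exon 13 (chr20:48497461-48497572, 112 bases), whose own length is no multiple of 3. Exon 15 (chr20:48503289-48503435, 147 bases) was listed once, with both inclusion junctions annotated, and its loss kept the frame with 532 codons left.

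Beside the AT-AC intron of SLC9A8 a start of exon 10 was listed that GENCODE does not hold. The annotated exon 10 has 106 bases and follows an AC. The listed exon (chr20:48481265-48481381) has 117 bases and starts 11 bases earlier, right after an AG. The bases around both starts (chr20:48481250-48481290) are shown with the 11 added bases in capitals, so that the annotated exon follows the last capital.
SLC9A8 exon 10, both starts: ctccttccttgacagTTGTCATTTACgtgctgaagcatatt
In both events on this exon the upstream exon was exon 8, whose 5′ss is GT, and exon 9, whose 5′ss is AT, was left out of both forms. The inclusion junction from exon 8 to the earlier AG was not annotated, nor was any junction from exon 8 to the annotated start. That form gains 11 bases and lacks the 139 bases of exon 9, a net loss of 128 bases, which shifts the frame and leaves 246 codons. The skipping junctions of these events ran from exon 8 to exon 11 or to exon 12, and left out exons 9 and 10, or 9 to 11. Exon 10 was also a flank in 4 events, 2 with the annotated start and 2 with the earlier one. The 5′ss of exon 10 was among the strongest of all listed exons, at the 99.3 percentile.

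The 5′ss of SLC9A8 lay above the median of all listed exons for 8 of the 10 exons, of which both forms of exon 7 share 1 site, and the 3′ss for 6 of 10. The lowest 5′ss were those of exon 15, at the 36.5 percentile, and exon 12, at 39.1. Exon 5 had the strongest 3′ss, at 92.4. In SLC9A7 both sites lay above the median for 3 of 5 exons each. Over the 64 exons of the 12 genes, the 5′ss lay below the median for 31 and the 3′ss for 39. The median 5′ss score was 8.13 (8.07 over all exons), and the median 3′ss score was 8.62 (9.21 over all exons), in units of log2.

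**Figure D2:**
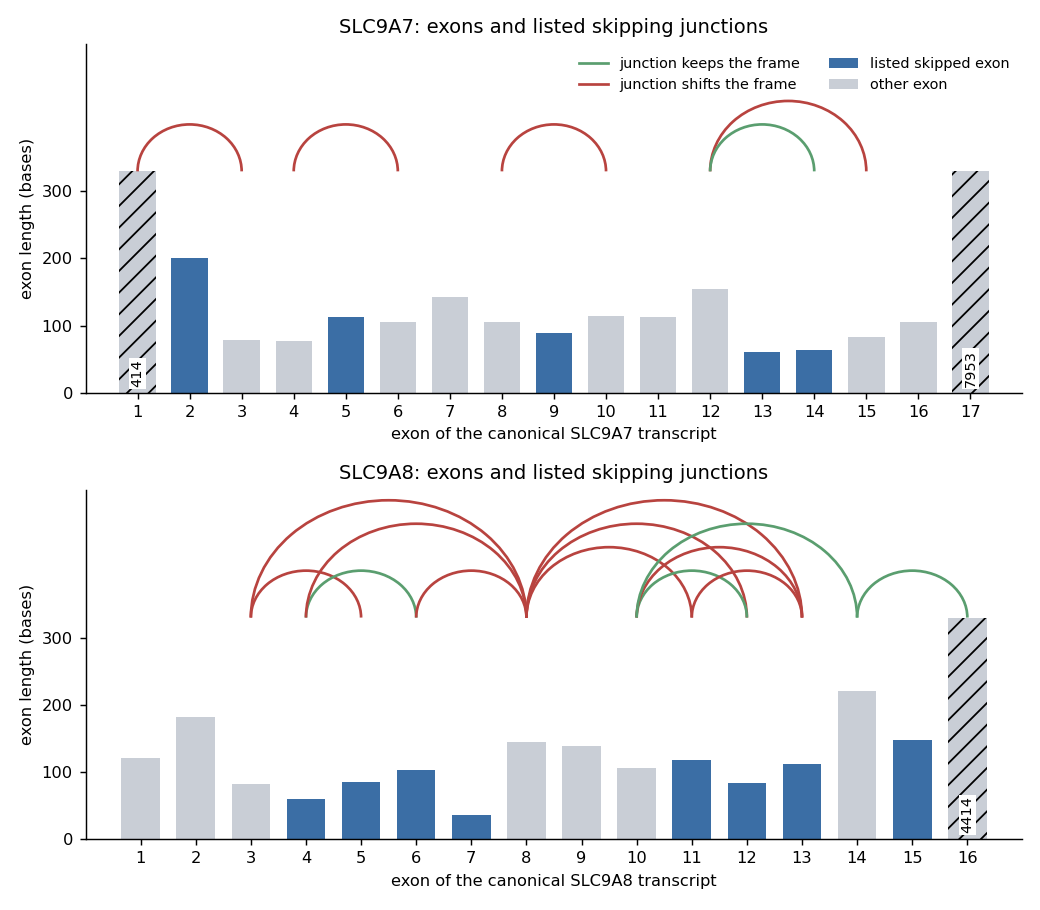
Exons of the canonical SLC9A7 and SLC9A8 transcripts (x axis, exon number) with their length in bases (bars), those listed as skipped in blue, and arcs for each listed skipping junction, green where the frame is kept and red where it is shifted. Hatched bars are cut off and carry their length. Exon 10 of SLC9A8 is grey because it was listed only with a start 11 bases earlier, and 5 arcs leave out 3 or 4 exons in SLC9A8 and none does in SLC9A7.

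The 7 events of mutually exclusive exons in SLC9A8 paired exons 4 and 5 in 2 events, exons 5 and 6 in 1 and exons 11 and 12 in 2. The other 2 paired the 117-base form of exon 10 with exon 11 or exon 13. In such an event one of the exons is kept and the other left out. Exons 5 and 6 differ by 18 bases, a multiple of 3, and the 117-base exon and exon 11 have equal lengths. In the remaining 5 events of SLC9A8 the lengths differed by a number that is no multiple of 3. Over all 12 genes this difference was a multiple of 3 in 5 of 20 events. The paired exons were neighbours in the canonical transcript in 14 of 20 events. This count leaves out the pairs with the 117-base exon, which is not itself in the canonical transcript. In 18 of 20 events both exons were also listed as skipped exons. The same shares over all listed events of mutually exclusive exons were not worked out, so these are counts only.

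The organellar exchangers SLC9A7 and SLC9A9 share the layout of their exons. Of exons 2 to 12, 8 have the same length at the same number in both genes, and exons 8 to 12 do so without a break. The identical bases of these 8 exons ranged from 66.0% of the length in exon 8 to 79.5% in exon 3. Exon 2 (200 bases in SLC9A7 and 203 in SLC9A9) was listed as skipped in both genes. Loss of exon 2 shifted the frame in both, and left 178 of 726 codons in SLC9A7 and 61 of 645 in SLC9A9. An exon numbered 13 was also listed in each gene, of 60 bases in SLC9A7 and 55 in SLC9A9. Past exon 12 the numbers need not match. The last intron with the letters TATCC follows exon 15 in SLC9A7 and exon 14 in SLC9A9. The exons numbered 13 are therefore not compared as counterparts. The 89-base exon 9 was listed in SLC9A7 only, and 69 of its bases (77.5%) are identical in SLC9A9. The exons are shown with the bases at which they differ in capitals.
SLC9A7 exon 9, chrX:46510751-46510839: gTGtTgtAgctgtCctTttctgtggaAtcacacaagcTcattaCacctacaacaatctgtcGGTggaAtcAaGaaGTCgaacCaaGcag
SLC9A9 exon 9, chr3:143271204-143271292: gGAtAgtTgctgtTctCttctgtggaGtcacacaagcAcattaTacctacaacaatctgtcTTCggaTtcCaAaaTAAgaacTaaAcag
That an exon was listed in one gene and not in the other does not show that its splicing differed, since depth was not used.

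**Figure D3:**
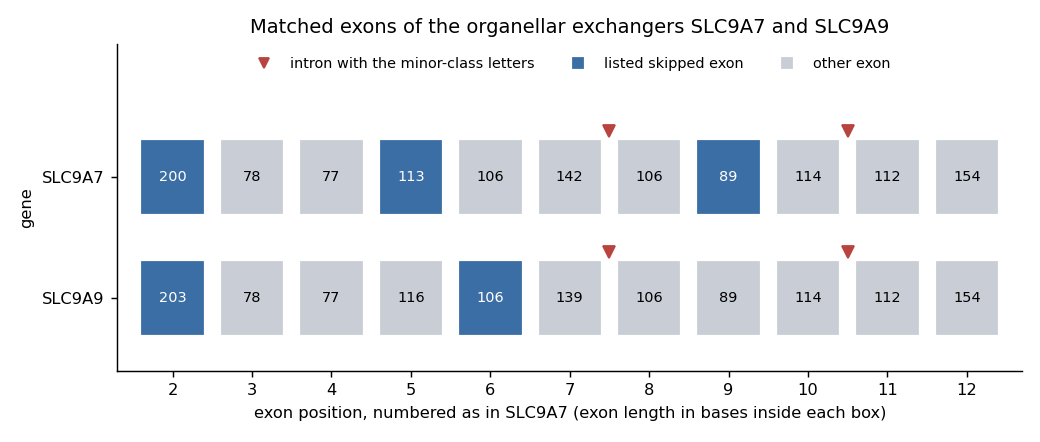
Matched exons of SLC9A7 and SLC9A9 (rows) by exon number (x axis), with exon length in bases in each box, exons listed as skipped in blue and introns with the letters TATCC at bases 2 to 6 as red triangles. The triangles stand at the same 2 places in both genes, after exons 7 and 10, and exon 2 is blue in both.

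Of the 7 introns with the minor-class letters, 0 had a listed skipped exon of the canonical transcript beside them. This count leaves out exon 10 of SLC9A8, which was listed as skipped with its earlier start. How many other introns of these genes lie beside a listed exon was not counted, so no difference can be read from the 0. Among the 25 skipped-exon events of SLC9A7, SLC9A8 and SLC9A9, 4 had a skipping junction that spanned an intron with the minor-class letters, all in SLC9A8. Beside the AT-AC intron, SLC9A7 and SLC9A9 each hold a pair of GT-AG introns with these letters, after exons 10 and 15 in SLC9A7 and after exons 10 and 14 in SLC9A9. The pair after exon 10 is shown with intron bases in capitals.
SLC9A7 intron 10, chrX:46508233-46510544: cggagcttttGTATCCTTTT
SLC9A9 intron 10, chr3:143212607-143214176: tggagcctttGTATCCTTTG

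SLC9A9 (chromosome 3, minus strand, 645 codons) had 3 events, on exons 2, 6 and 13, of 203, 106 and 55 bases, and each shifted the frame. Exon 2 was the only one with an annotated skipping junction, though not in a protein-coding transcript. It had strong sites, at the 98.4 percentile for the 3′ss and 93.5 for the 5′ss. Loss of exon 6 (chr3:143371097-143371202) left 263 codons and loss of exon 13 (chr3:143100902-143100956) left 498. Exon 13 has a 5′ss that starts with GC in place of GT.

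Of the plasma membrane exchangers, SLC9A5 (chromosome 16, plus strand) had 19 skipped-exon events on 13 of its 16 exons. Of the 19, 13 left out 2 or more exons, against 10 of 17 in SLC9A8 and 43 of 90 over the 12 genes. The longest skip in SLC9A5 left out 13 exons, the most in any of the 12 genes. In 11 events of SLC9A5 the skipping junction ended at exon 15, from 7 different exons upstream. The junction from exon 1 to exon 15 removes 1893 bases in frame and leaves 265 of 896 codons. Exons 13 (chr16:67298255-67298425) and 14 (chr16:67298943-67299009), which lie just before exon 15, both have a GC 5′ss. These sites are shown with intron bases in lower case.
SLC9A5 exon 13, 5′ss: AAGgcatgt
SLC9A5 exon 14, 5′ss: CAGgcaagc
SLC9A9 exon 13, 5′ss: CAGgcaagt
A GC 5′ss was found at these 3 of the 64 exons. The other 61 exons (95.3%) had AG before and GT after them, against 98.9% of all listed exons. How many of all listed exons have a GC 5′ss was not counted, so an excess cannot be read from the 3. The 3′ss of SLC9A5 exon 13 was also among the weakest, at the 0.524 percentile. Over the gene, 4 of 13 exons lay above the median of all exons at the 3′ss and 4 of 13 at the 5′ss.

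SLC9A2 (chromosome 2, plus strand, 812 codons) had 2 events, on exon 2 of 464 bases and exon 4 of 218 bases, and loss of either shifted the frame, to 111 and 343 codons. Its exons 5 to 7 have the same lengths one by one as exons 7 to 9 of SLC9A5. All 3 of these exons were listed in SLC9A5, and 0 in SLC9A2. Over the whole gene, 13 of 16 exons were listed in SLC9A5 and 2 of 12 in SLC9A2. Depth was not used, so no difference at the matched exons can be read from this.

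The antiporters SLC9B1 and SLC9B2, neighbours on chromosome 4, share a run of 8 exons of equal length, exons 4 to 11 in each. Of these, 6 were listed in SLC9B2 and 1 in SLC9B1, and no position was listed in both. Because SLC9B1 had only 2 skipped-exon events and depth was not used, no difference between the genes can be read from this. In SLC9B2 the junction from exon 5 to exon 12 removes 6 exons, 807 bases in frame, and was set against exon 6 and exon 10. Loss of its exon 4 (171 bases) or exon 9 (150 bases) also kept the frame, with 480 and 487 of 537 codons left. SLC9B1 had a 122-base exon outside the canonical transcript (chr4:103833165-103833286), and its skipping junction was the canonical intron 7.

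The channel subunits ASIC1 and ASIC3 had the same kind of event at the same pair of exons. In each, an exon of 151 bases is followed by one of 128 bases, as exons 4 and 5 of ASIC1 and exons 2 and 3 of ASIC3. Loss of either alone shifted the frame, and loss of both, 279 bases, kept it, with 435 of 528 codons left in ASIC1 and 438 of 531 in ASIC3. Both single and double losses were listed in each gene except the loss of exon 3 alone in ASIC3. ASIC1 also had a 5′ss event at exon 9, in which the longer form of 230 bases adds 138 bases, or 46 codons, to the canonical 92 bases (chr12:50474281-50474510), and both junctions were annotated. The longer form had the higher 5′ss score, 9.06 against 6.44. In ASIC3 a 3′ss event moved the exon start by 20 bases, which is no multiple of 3. In ASIC3, 1 of 5 exons lay above the median of all exons at the 3′ss and 0 of 5 at the 5′ss. SCNN1D (chromosome 1, plus strand, 802 codons) had 12 events on 6 exons. Loss of exon 2 (72 bases) kept the frame with 778 codons, loss of exon 12 (99 bases) with 769, and loss of exons 11 to 13 (381 bases) with 675. Loss of exon 3 (200 bases) left 28 codons. Here all 6 exons had a 5′ss above the median, and 1 of 6 a 3′ss above it.

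The scaffold SLC9A3R1 (chromosome 17, plus strand, 358 codons) had 7 skipped-exon events on exons 2, 3 and 4, of 162, 154 and 41 bases. Loss of all 3, 357 bases, kept the frame with 239 codons left, and this junction was annotated. Loss of exon 4 alone was annotated too, though not in a protein-coding transcript. On the canonical transcript it shifted the frame and left 256 codons. SLC9A3R2 (chromosome 16, plus strand, 337 codons) had events on exon 3 of 180 bases, in frame with 277 codons left, and on exons 3 and 4 together, 334 bases, which shifted it. A 154-base exon is listed in both scaffolds, as exon 3 in SLC9A3R1 and exon 4 in SLC9A3R2. In the 3′ss event of SLC9A3R2 the longer form is the canonical last exon, and the shorter form lacks its first 33 bases.

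**Figure D4:**
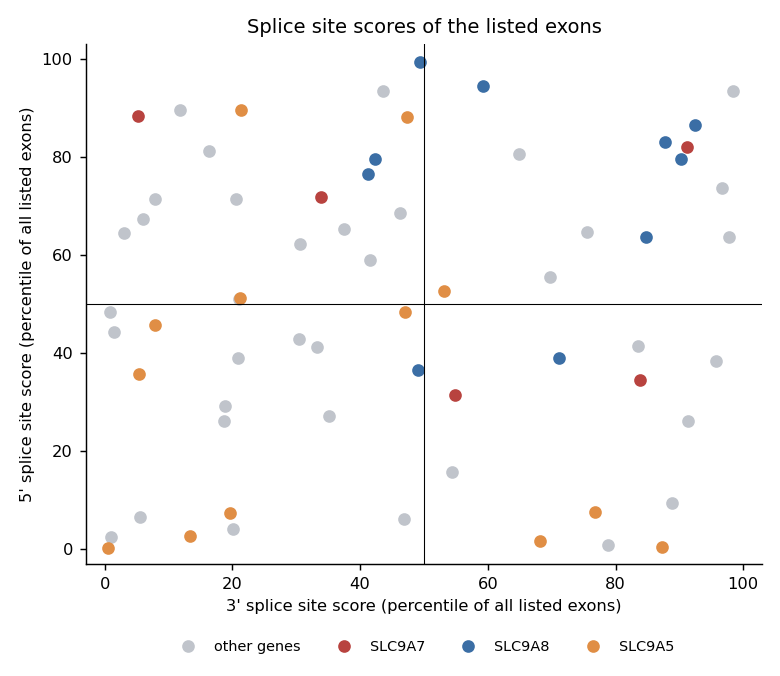
Scores of the 3′ss (x axis) and 5′ss (y axis) of the 64 listed exons, each as a percentile of all 67154 listed exons, with lines at the median. Above the 5′ss median lie 8 of the 10 exons of SLC9A8 (blue), with both forms of exon 7 sharing 1 site, and 4 of the 13 exons of SLC9A5 (orange).

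Other genes of acid-base balance and of amiloride's known targets were counted from a list of 30: partners of the exchangers such as CHP1 and EZR, bicarbonate and lactate carriers, carbonic anhydrases, regulators of the epithelial sodium channel such as NEDD4L, sodium-calcium exchangers, and PLAU, the urokinase that amiloride inhibits. Of the 30 genes, 24 had a listed event. They held 188 of the 113456 skipped-exon events listed in all genes and 52 of the 39869 of mutually exclusive exons. They also held 1 of 2620 alternative 5′ss and 3 of 2868 alternative 3′ss, with no retained intron. This made 244 of 159490 events. The share of all genes that have a listed event was not worked out, so 24 of 30 is a count only.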

How the data were processed

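Paired RNA-seq reads came from 1 control and 1 amiloride library of HEK293T cells. The submitters' processing notes name STAR 2.5.1 and the builds hg19 and GRCh37, and the version and settings of rMATS are not given in the sources used here. The authors deposited 5 rMATS tables. Used from these were the gene symbol, the coordinates of each event and the effective lengths of its forms. In all 90 skipped-exon events the inclusion form was longer than the skipping form (125 bases) by the exon, so reads on exon bodies were counted. No label ties the 30 columns of reads and inclusion levels, over the 5 tables, to a library, and they were not used in any step. The 15 columns with the authors' own comparison, which hold a p-value, an FDR and the inclusion level difference, were not used either. Where the design had set out inclusion levels, none is given, and the depth of each library and the precision it gives are unknown.

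Skipped exons were grouped by chromosome, strand, start and end. Junctions and exon numbers came from GENCODE release 44 lifted to GRCh37 and its canonical transcripts. Coordinates are 1-based. SLC9A3R1 and SLC9A3R2 were matched to NHERF1 and NHERF2 through RefSeq synonyms. Site scores are sums of log2 base frequencies at 300873 annotated GT 5′ss (3 exon and 6 intron bases) and 300290 annotated AG 3′ss (20 intron and 3 exon bases) over equal frequencies, with a pseudocount of 0.5, and were tested on simulated data. Runs of equal exon length of at least 3 exons were compared between the genes without gaps. Every gene described is named with its number of events, with SLC9A7 and SLC9A8 exon by exon and, of the others, the exons with most events and the shortest and longest. Other exons were named after their values were seen. A further 2 genes that the symbols matched are not reported here and enter no count of these genes. The genes and lists were chosen with earlier results of these data known, and no test across genes was made. Scripts ran on Python 3.11.15 with pysam 0.24.0, pandas 2.3.3, numpy 2.4.6, matplotlib 3.10.9 and scipy 1.17.1.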

Additional observations from a re-analysis of the deposited data

How the results depend on the processing

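The share of skipped exons whose length is a multiple of 3 (28.1%) ran from 24.1% without SLC9A8 to 31.1% with each event counted, and it was 27.9% for exons between AG and GT, 27.0% for exons with both ends annotated and 28.8% without SLC9A7. All of these stayed within the Wilson interval of the main value. The median length of 120.0 bases was also 120.0 with each event counted, 127 without SLC9A7 and 128 without SLC9A8. Events per exon were 1.41, and 1.43 with overlapping exons merged. With exchangers alone, leaving out the channels and both scaffolds, the count of 114 events fell to 67. The share of annotated skipping junctions and the search for the minor-class letters were both chosen after seeing the data, as were their alternatives. The share was 14.4%, and 10.0% in protein-coding transcripts alone, and a search with a further T left 7 of the 7 introns in these genes and 719 of 910 in all genes. The planned values of inclusion levels, also with at least 20 reads, were not run, because no column could be tied to a library. No paired analysis was possible because the control and the amiloride group hold 1 library each. Without levels, a listed event may rest on few reads, and the forms' abundance, a change after amiloride and any decay of the RNA cannot be read from these values.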
